A study of Mus musculus with 8 samples.

Results

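Type A γ-aminobutyric acid (GABA-A) receptors are chloride channels built from a choice of related subunits, and the subunits considered here are the products of *Gabra2*, *Gabra3*, *Gabra4* and *Gabra5* (α2 to α5), *Gabrb1* (β1), *Gabrg1* (γ1) and *Gabrd* (δ). These 7 genes were taken by symbol from the 31053 genes of the single-cell RNA sequencing libraries. Another 12 subunit genes of the same receptor family serve below as the rest of the pathway. The libraries came from the prefrontal cortex (PFC) and the striatum of male C57BL/6N mice, which were either wild type (WT), with no treatment, or *Setd1a*+/-, heterozygous for a frameshift that CRISPR-Cas9 made in an exon ahead of the SET domain of the histone methyltransferase gene *Setd1a* in a line chosen for that mutation and backcrossed to C57BL/6N. Each of the 4 groups held 2 libraries, each made from the pooled tissue of 2 mice, so that every comparison of genotypes rests on 2 against 2. The labels give an age of 8 to 10 weeks and call the striatal tissue NAc, whereas the methods call it striatum and give older mice. The design asks in which cell types the heterozygous mutation alters transcription. Whole cells dissociated with papain were sequenced.

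GABA-A receptors carry most of the fast inhibition in the adult brain. The α and β subunits form the sites where GABA binds, the γ subunits are needed for benzodiazepine binding beside an α subunit and for clustering at the synapse, and the δ subunit takes the place of γ in receptors outside synapses that respond to ambient GABA and neurosteroids. α5 is best known from the hippocampus and from deep cortical layers, α4 with δ from thalamus, dentate gyrus and striatum, and γ1 from glia and from a few deep forebrain nuclei.

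The libraries held 15154268 to 26277553 UMIs (unique molecular identifiers, 1 per captured RNA molecule), and the 1508 to 4361 annotated cells per library had a median of 2302.5 to 3042 UMIs. The deposited annotation was checked with 3 markers per cell type. All 27 of 27 markers in the PFC and 31 of 33 in the striatum were highest in their own type, and the exceptions were *Gad2* and *Slc32a1*, which were highest in D1 medium spiny neurons (MSNs), themselves GABAergic. Of the barcodes, 35 occurred in more than 1 PFC library, 91 in more than 1 striatal library and 311 in more than 1 of all 8. *Setd1a* itself over all cells was 8.45 and 11.2 CPM (UMIs per 1000000) in the WT libraries of the PFC and 5.60 and 9.33 CPM in its *Setd1a*+/- libraries, which overlapped, and 13.4 and 15.2 against 9.16 and 12.5 CPM in the striatum, which did not. By replicate number, the *Setd1a*+/- library was below its WT library in every pair of both tissues. The frameshift need not lower 3′ tag counts. The second *Setd1a*+/- striatal library stood apart in its makeup, with 31 astrocytes against 214 to 354 in the other 3.

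Of the 7 genes, 4 lie in a cluster on chromosome 5 (build mm10, which is GRCm38, GENCODE vM21 annotation). In order these are *Gabrg1* (ENSMUSG00000001260, chr5:70751047-70842617, minus strand), *Gabra2* (ENSMUSG00000000560, chr5:70957597-71095849, minus strand), *Gabra4* (ENSMUSG00000029211, chr5:71569749-71658308, minus strand) and *Gabrb1* (ENSMUSG00000029212, chr5:71658113-72149037, plus strand), all within 1.4 megabases. *Gabra4* and *Gabrb1* are divergent neighbors whose first 196 bases overlap on opposite strands. Whether the counting used strand is not given in the sources used here, so reads within that overlap cannot be assigned from strand. *Gabra5* (ENSMUSG00000055078, chr7:57407672-57510059, minus strand), *Gabra3* (ENSMUSG00000031343, chrX:72432681-72656848, minus strand) and *Gabrd* (ENSMUSG00000029054, chr4:155384980-155398112, minus strand) stand apart from the others.

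The promoters of the 4 neighbors on chromosome 5 are shown because these genes share a locus, where *Gabrg1* was less like the other 3 in its levels over cell types (Pearson's r 0.373 to 0.721) than these were like each other (0.785 to 0.923), as described below. Each sequence runs 5′ to 3′ along the gene's own strand from 250 bases before to 50 bases after the RefSeq transcription start (GRCm38.p6), at chr5:70842568-70842867 for *Gabrg1*, chr5:71095800-71096099 for *Gabra2*, chr5:71658259-71658558 for *Gabra4* and chr5:71657671-71657970 for the upstream start of *Gabrb1*. Capitals mark every CG dinucleotide, which reads the same on both strands.
Gabrg1: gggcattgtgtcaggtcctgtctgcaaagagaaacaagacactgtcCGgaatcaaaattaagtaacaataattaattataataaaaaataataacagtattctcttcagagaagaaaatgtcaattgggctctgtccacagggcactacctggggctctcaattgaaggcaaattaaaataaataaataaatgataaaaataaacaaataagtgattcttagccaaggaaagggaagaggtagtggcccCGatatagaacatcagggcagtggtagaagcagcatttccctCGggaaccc
Gabra2: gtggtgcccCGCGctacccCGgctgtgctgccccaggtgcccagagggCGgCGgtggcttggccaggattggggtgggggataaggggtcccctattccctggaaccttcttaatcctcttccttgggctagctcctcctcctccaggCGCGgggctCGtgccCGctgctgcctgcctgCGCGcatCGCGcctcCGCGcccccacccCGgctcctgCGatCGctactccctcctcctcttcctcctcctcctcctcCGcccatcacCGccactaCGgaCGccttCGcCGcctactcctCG
Gabra4: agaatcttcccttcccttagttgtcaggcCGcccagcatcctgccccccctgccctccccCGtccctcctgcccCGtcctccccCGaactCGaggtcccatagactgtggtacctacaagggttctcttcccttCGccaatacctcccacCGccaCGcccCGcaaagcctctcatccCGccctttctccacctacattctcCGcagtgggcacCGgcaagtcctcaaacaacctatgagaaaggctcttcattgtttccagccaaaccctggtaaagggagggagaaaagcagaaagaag
Gabrb1: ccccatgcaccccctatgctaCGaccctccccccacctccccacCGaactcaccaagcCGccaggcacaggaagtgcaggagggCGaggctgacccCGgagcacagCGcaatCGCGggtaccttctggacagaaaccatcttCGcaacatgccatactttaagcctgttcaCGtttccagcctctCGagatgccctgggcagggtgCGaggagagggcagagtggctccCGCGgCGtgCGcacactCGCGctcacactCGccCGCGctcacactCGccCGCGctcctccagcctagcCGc

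These windows differed widely in base composition. That of *Gabrg1* held 3 CG dinucleotides at 38.3% G+C, that of *Gabra2* held 25 at 70.0%, that of *Gabra4* held 12 at 58.7% and that of *Gabrb1* held 25 at 66.0%. Over the 32851 RefSeq promoter windows of the same length, which belong to 27025 genes, 94.6% held at least 1 CG. Fewer CG than in the *Gabrg1* window were found in 23.3% of them, and fewer than in the *Gabra2* window in 81.6%. The windows of *Gabra3*, on chromosome X, held 0 CG at 43.0 and 39.3% G+C. That of *Gabra5* held 13 at 56.7%, and the downstream start of *Gabrb1* held 9 at 50.3%. A link between CG content and levels over cell types was not tested. Promoters of 6 members are in the RefSeq table. *Gabrd* has no entry.

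Levels below are CPM, the UMIs of a gene per 1000000 UMIs of all cells of that type in 1 library, summed before dividing, and the 4 values of a tissue are given as WT replicates 1 and 2, then *Setd1a*+/- replicates 1 and 2. CPM was compared between cell types within a gene, never between genes. A cell type pair was tested with both genotypes together (edgeR's quasi-likelihood test, Benjamini-Hochberg adjustment over all genes tested, library as a block) and called where the adjusted p was under 0.05 and the fold over 1.5. The cell types were drawn from the same counts, so these pair tests are no independent test of the types. With the block, they describe the size of a difference within libraries relative to how that difference varied between them. In the 9 pairs, 35 of 55 tests of members were called, against 30% of all genes tested in the same pairs. Members scarce in either type of a pair passed the filter on low counts through the other type, so this count is no measure of enrichment.

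**Figure D1:**
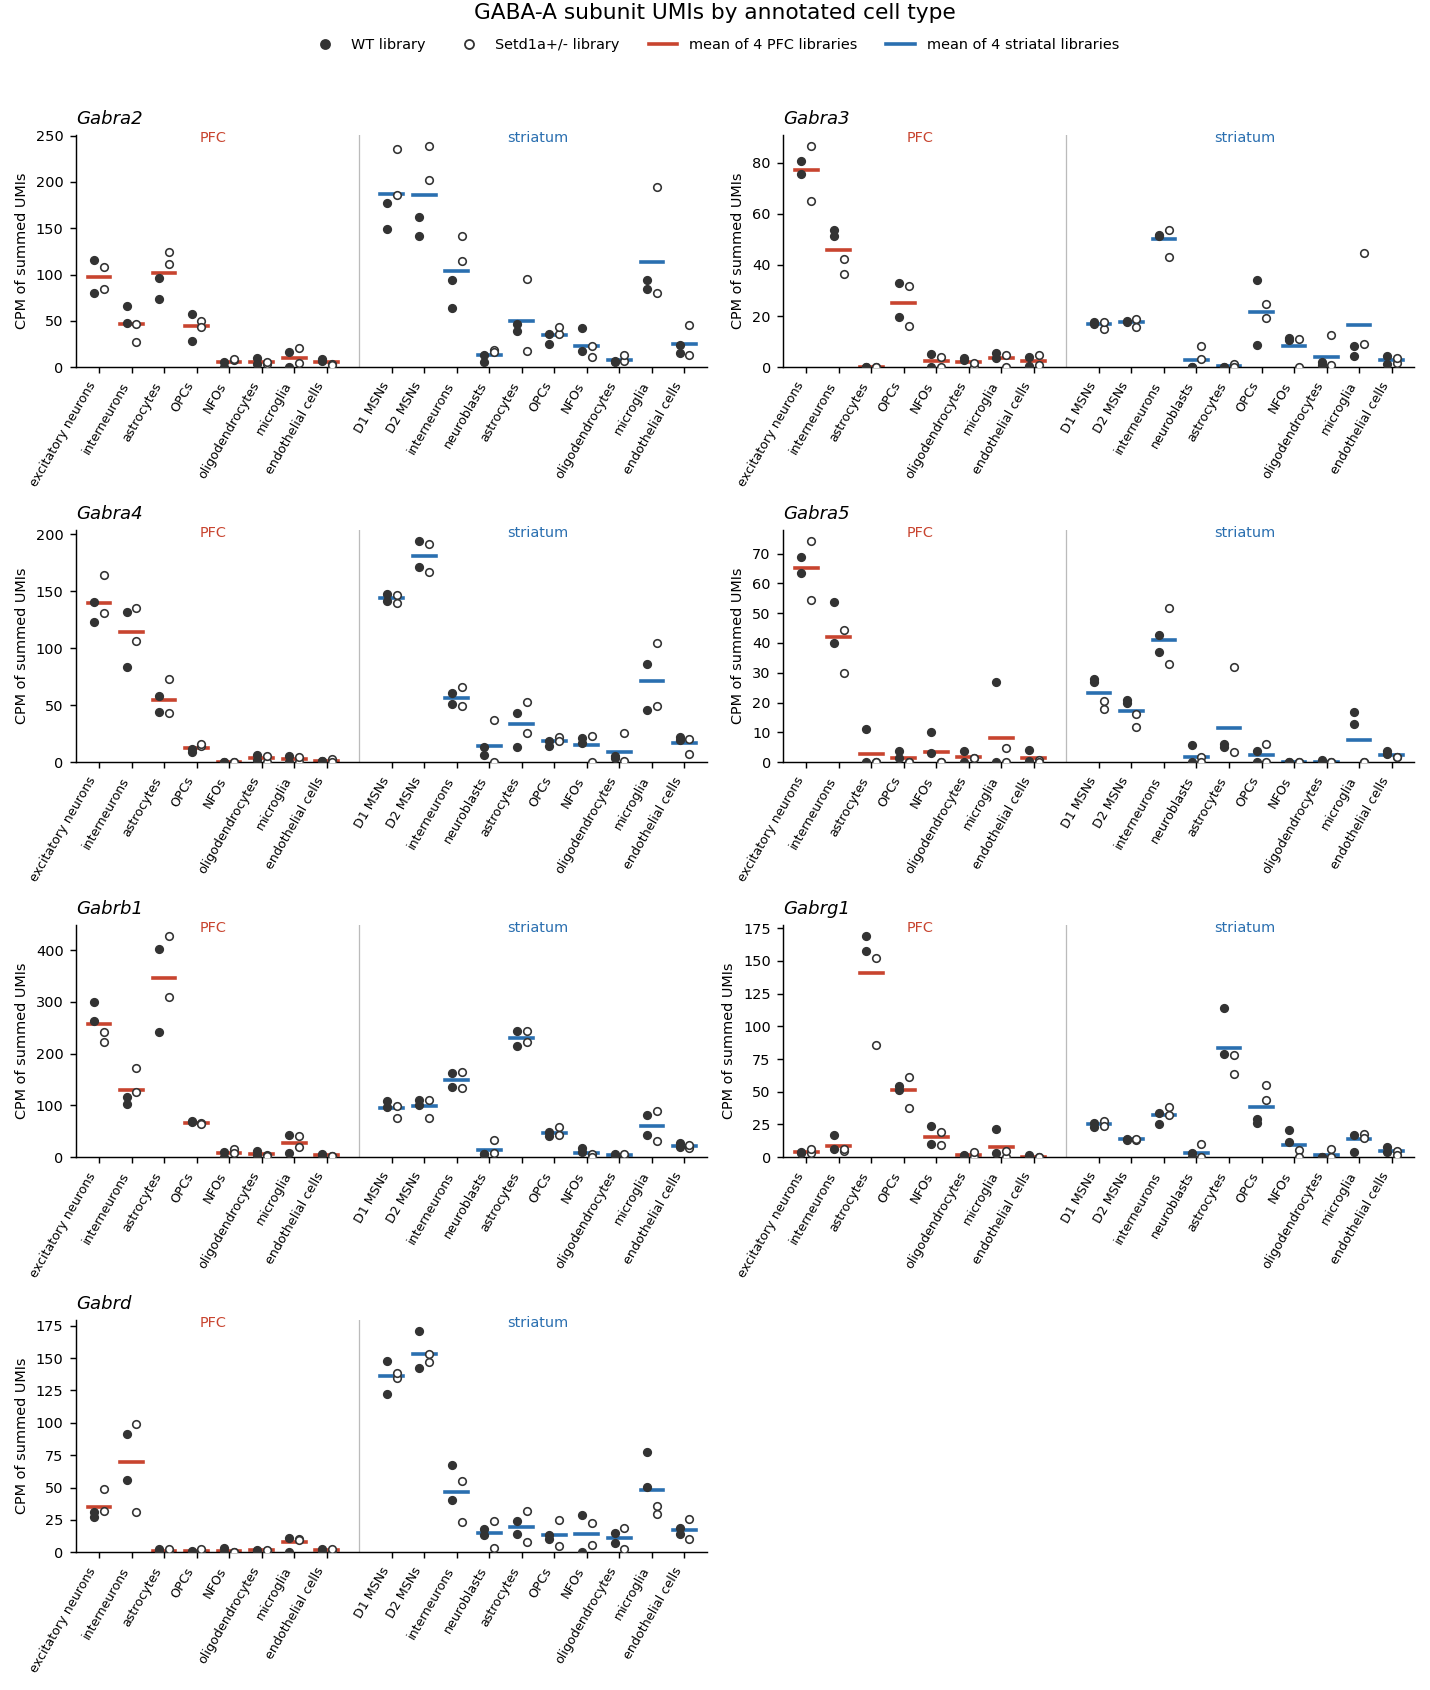
Level of each of the 7 subunit genes (CPM of summed UMIs) in the 8 PFC and 10 striatal cell types, with a point for each of the 4 libraries of a tissue. *Gabra2*, *Gabra4* and *Gabrd* reach their highest means in striatal MSNs, *Gabra3* and *Gabra5* in PFC excitatory neurons, and *Gabrb1* and *Gabrg1* in PFC astrocytes.

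*Gabra2*, whose α2 subunit is enriched at synapses on the axon initial segment and on MSNs, was highest in MSNs. D1 MSNs held 177, 149, 185 and 236 CPM and D2 MSNs 162, 141, 202 and 239 CPM, and the D1 and D2 ranges overlapped throughout (log2 difference -0.05 ± 0.06 SE, adjusted p = 0.687). Striatal interneurons held 93.9, 64.2, 115 and 141 CPM, all below the MSNs of the same library, and MSNs exceeded them by 0.96 ± 0.08 on the log2 scale (adjusted p = 4.43e-09). In the PFC the ranges of astrocytes (96.5, 73.3, 111 and 125 CPM) and excitatory neurons (115.5, 80.2, 84.7 and 108 CPM) overlapped, and the gene was lower in interneurons (65.7, 47.8, 26.6 and 46.3 CPM). The excitatory neurons exceeded the interneurons by 1.07 ± 0.17 (adjusted p = 2.95e-07). *Gabra4* (0.32 ± 0.12) passed the adjusted threshold below the fold in this pair and *Gabrg1* (-0.99 ± 0.55) passed neither. Excitatory neuron markers in PFC astrocytes summed to 0 to 47.7 CPM, at most 4.80% of their level in excitatory neurons, and *Gabra2* stood at 83.6 to 131% of its level there. The part of neuronal RNA in the astrocyte values was not tested.

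*Gabra4*, which codes for α4, was highest in D2 MSNs at 171, 194, 191 and 166 CPM, and every one of these libraries stood above every D1 value (142, 147, 146 and 139.5 CPM). The difference passed the adjusted threshold but not the fold, at -0.41 ± 0.06 for D1 minus D2 (adjusted p = 1.78e-10), where 4.76% of all genes tested were called. PFC excitatory neurons, at 141, 123, 164 and 131 CPM, overlapped the D1 range, and PFC interneurons at 131.5, 83.7, 135 and 106 CPM overlapped with them. Striatal interneurons were much lower, at 50.7, 60.9, 49.3 and 66.0 CPM, and MSNs exceeded them by 1.57 ± 0.09 (adjusted p = 1.73e-11). Among 295 newly formed oligodendrocytes of the PFC no UMI was found, which allows up to 3.33 CPM and a UMI in up to 1.02% of cells, a limit on detection and not on cells expressing the gene.

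*Gabrd*, the gene of the extrasynaptic δ subunit, was an MSN gene in the striatum. D2 MSNs held 142, 171, 147 and 153 CPM and D1 MSNs 123, 148, 135 and 138 CPM, with D1 lower by a small margin that missed the fold (log2 difference -0.26 ± 0.06, adjusted p = 0.000523). The next type in order, PFC interneurons, held 91.4, 55.8, 31.1 and 99.3 CPM, a range apart from both MSN types. Striatal interneurons held 40.1, 67.4, 23.4 and 54.7 CPM, and MSNs exceeded them by 1.68 ± 0.13 (adjusted p = 6.67e-10), where 31.8% of all genes tested were called. In the PFC the direction was the other way around, with *Gabrd* lower in excitatory neurons (30.7, 27.4, 32.1 and 48.5 CPM) than in interneurons by 0.95 ± 0.19 (log2, adjusted p = 3.18e-05), a call lost without the library block (adjusted p = 0.0526). *Gabrd* was also the member with free RNA above every cell type, at 194, 184, 175 and 204 CPM in striatal barcodes of 1 to 50 UMIs, and its PFC free RNA (mean 37.6 CPM) stood beside a mean of 34.7 CPM in excitatory neurons. The values of *Gabrd* in types with few UMIs of it are read against that background.

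*Gabra3* and *Gabra5*, coding for α3 and α5, were genes of PFC excitatory neurons and of interneurons. *Gabra3* held 75.5, 80.6, 65.2 and 86.5 CPM in excitatory neurons, above every value in the next types, striatal interneurons (51.5, 51.8, 43.1 and 53.7 CPM) and PFC interneurons (51.4, 53.8, 42.2 and 36.4 CPM), which overlapped. In the striatum it was low in MSNs (15.0 to 18.8 CPM over D1 and D2) and higher in interneurons, a log2 difference of -1.46 ± 0.13 for MSNs minus interneurons (adjusted p = 9.95e-09). *Gabra5* was likewise highest in excitatory neurons and next in interneurons, with 68.9, 63.4, 74.2 and 54.5 CPM in excitatory neurons, 40.0, 53.8, 44.4 and 29.8 CPM in PFC interneurons and 37.1, 42.8, 51.7 and 33.0 CPM in striatal interneurons. The excitatory values stood apart from both interneuron types, and these overlapped each other. MSNs lay below striatal interneurons by 0.83 ± 0.16 (log2, adjusted p = 0.000248). Excitatory neurons exceeded PFC interneurons by 0.72 ± 0.17 in *Gabra3* (adjusted p = 0.000468) and by 0.61 ± 0.18 in *Gabra5* (adjusted p = 0.00492), among 26% of all genes tested that were called, and the *Gabra5* call was lost with DESeq2 (adjusted p = 0.0536). Without the first WT (0.54), the first *Setd1a*+/- (0.56) or the second *Setd1a*+/- PFC library (0.55) the *Gabra5* difference fell below the fold.

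Among glia, *Gabra3* was detected in progenitors and hardly at all in astrocytes. No UMI of *Gabra3* was found in 554 PFC astrocytes with 1172972 UMIs, which allows up to 2.56 CPM and a UMI in up to 0.542% of cells, again a limit on detection. Oligodendrocyte progenitor cells (OPCs) of the PFC held 33.0, 19.6, 31.6 and 16.1 CPM and were at least 9.97-fold higher than astrocytes, and excitatory neurons at least 30.1-fold higher, with a floor of 3 counts over the astrocyte group. In the striatum, where 1 UMI was found in astrocytes, the ratio of OPCs to astrocytes was 44.3 with a counting interval of 7.60 to 1782. That UMI was in the first *Setd1a*+/- library. The fitted log2 difference, -4.74 ± 0.78 for astrocytes minus OPCs, was -3.91 without the first WT library and -6.33 without the first *Setd1a*+/- library, where astrocytes had no UMI left and the value depends on the prior count. The OPC value did not reach the level of excitatory neurons in any library.

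*Gabrb1*, coding for β1, had its highest mean in PFC astrocytes, at 403, 242, 427 and 309 CPM, with an overlap with PFC excitatory neurons (300.2, 263, 242 and 222 CPM). Striatal astrocytes held 244, 214, 243 and 223 CPM and stood apart from the next type, striatal interneurons, at 162, 137, 164 and 134 CPM. MSNs, with 97.3, 108, 99.4 and 75.3 CPM in D1 and 110, 100.4, 111 and 75.9 CPM in D2, were lower. In the PFC the astrocytes exceeded OPCs by 2.77 ± 0.15 on the log2 scale (adjusted p = 8.81e-16), and excitatory neurons exceeded interneurons by 0.99 ± 0.12 (adjusted p = 5.91e-11).

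*Gabrg1*, coding for γ1, had its highest levels in astrocytes of both tissues. PFC astrocytes held 169, 158, 85.4 and 152 CPM and striatal astrocytes 79.0, 114, 77.7 and 63.7 CPM, with overlapping ranges. OPCs came next, at 51.0, 54.8, 37.5 and 61.6 CPM in the PFC and 29.2, 26.3, 43.7 and 55.5 CPM in the striatum. PFC excitatory neurons held 3.71, 3.48, 3.21 and 6.53 CPM, below the free RNA mean of 9.51 CPM, and gave 18.3% of the tissue's *Gabrg1* UMIs, while astrocytes gave 42.6% and OPCs 28.1%. For the other 6 members the excitatory neurons gave 83.5 to 92.9% of the PFC UMIs. In the striatum neurons gave most *Gabrg1* UMIs, with 35.9% from D1 MSNs, 16.0% from interneurons and 13.2% from D2 MSNs, against 19.8% from astrocytes and 9.38% from OPCs. Per UMI, D1 MSNs held 26.5, 23.2, 27.5 and 23.9 CPM, every library above D2 MSNs (13.8, 13.2, 13.3 and 14.0 CPM). Striatal free RNA stood at 14.4, 15.6, 15.8 and 13.3 CPM, below D1 MSNs and about the level of D2 MSNs, and mature oligodendrocytes beside the same free RNA held 0.531, 0, 0 and 6.29 CPM. The part of free RNA in the MSN values was not tested. The D1 excess was 0.80 ± 0.15 (log2, adjusted p = 5.50e-06) and was the single member called between D1 and D2 MSNs, among 4.76% of all genes tested. Striatal interneurons, at 34.1, 25.5, 32.0 and 38.7 CPM, overlapped D1 MSNs.

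Along the oligodendrocyte lineage, the members that were called stood higher in progenitors than in mature cells. OPCs exceeded mature oligodendrocytes in *Gabrg1* by 4.17 ± 0.39 in the PFC and 5.69 ± 0.55 in the striatum (log2, adjusted p = 8.96e-10 and 2.57e-16). The striatal value rests on 2 UMIs in mature oligodendrocytes and was 4.66 without the first and 6.37 without the second *Setd1a*+/- library. *Gabrb1* followed at 2.94 ± 0.28 and 2.95 ± 0.30, *Gabra3* at 2.89 ± 0.47 and 3.09 ± 0.50, *Gabra2* at 2.52 ± 0.36 and 1.81 ± 0.30, and *Gabra4* at 1.30 ± 0.54 and 1.66 ± 0.44. All 5 members tested in the PFC and 5 of 6 in the striatum were called, beside 49.9% and 51% of all genes tested, so a shift between these cell types was common. These 5 held only 7 (*Gabrg1*) to 22 (*Gabrb1*) UMIs in mature PFC oligodendrocytes. In that type alone no member passed the filter on low counts, and in striatal mature oligodendrocytes 2 did. The PFC members passed it through OPCs, so a call in the other direction was hardly possible and the count is no measure of enrichment. With library size scaling the PFC values were larger, at 4.77 for *Gabrg1*, 3.57 for *Gabrb1*, 3.51 for *Gabra3*, 3.14 for *Gabra2* and 1.90 for *Gabra4*. The *Gabra4* calls were lost in both tissues with DESeq2, in the PFC without the library block (adjusted p = 0.0783), with no filter on low counts (adjusted p = 0.0503) and without the first WT library (1.18, adjusted p = 0.119) and in the striatum without the first *Setd1a*+/- library (0.87, adjusted p = 0.164), and *Gabrd* did not pass (log2 difference -0.21 ± 0.42, adjusted p = 0.686). For PFC *Gabra4*, 1.18 was both the lowest and the highest value over the leave-one-out fits in which it was tested. PFC astrocytes exceeded OPCs in *Gabra4* by 2.58 ± 0.33, in *Gabrg1* by 1.95 ± 0.18 and in *Gabra2* by 1.60 ± 0.21 (adjusted p = 1.60e-07, 2.53e-10 and 2.60e-07, with 41.4% of all genes called). In the striatum, where 43.8% were called, *Gabrb1* (2.49 ± 0.17) and *Gabrg1* (1.52 ± 0.25) were higher in astrocytes. *Gabra4* was 0.83 ± 0.33 higher (adjusted p = 0.0402), a call lost with DESeq2, with library size scaling, without the library block, without the second WT library (0.54, adjusted p = 0.292) and without the first *Setd1a*+/- library (1.07, adjusted p = 0.0543), and *Gabra2* did not pass (0.35 ± 0.30, adjusted p = 0.347).

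The share of cells with at least 1 UMI depended on cell size, so each is given, over the cells of all 4 libraries, with its value after every cell was thinned to 1000 UMIs. *Gabra2* was seen in 41.0% of D1 MSNs (95% Wilson interval 39.5 to 42.6%) and in 16.1% after thinning. *Gabra4* was seen in 44.7% of D2 MSNs (42.7 to 46.7%) and in 15.4% after thinning, and *Gabrd* in 40.1% (38.2 to 42.1%) and 15.6%. The MSNs had a median of 3167 (D1) and 3422 (D2) UMIs. *Gabra3* was seen in 37.0% (35.2 to 38.8%) and *Gabra5* in 32.1% (30.4 to 33.9%) of PFC excitatory neurons, the cells with the most UMIs (median 6546), and in 7.53% and 7.14% after thinning. *Gabrb1* was seen in 48.6% of PFC astrocytes (44.4 to 52.7%) and *Gabrg1* in 26.0% (22.5 to 29.8%), and these cells, with a median of 2026 UMIs, kept 29.2% and 13.9%. Mature oligodendrocytes, with medians of 2056 (PFC) and 2076 UMIs (striatum), give a low comparison for these shares and no upper limit on background. There each member was seen in 0.0426 to 1.62% of cells, below each share above, thinned or not. Striatal microglia, where MSN markers summed to 23.2 to 40.3% of their MSN level, held means of 113 CPM of *Gabra2*, 71.4 CPM of *Gabra4* and 48.3 CPM of *Gabrd*. The intervals cover counting error only.

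Within PFC excitatory neurons, the 7 annotated subtypes of superficial (SL) and deep (DL) layers were not all in the same order of means. Most neighbors in these orders overlapped. The orders of *Gabra2* and *Gabra4* differed only in the place of DL-Pou3f1. *Gabra2* ran from SL-Myh7 (mean 219.5 CPM over 4 libraries) and SL-Cux2 (151.5 CPM) to DL-Foxp2 (45.2 CPM) and DL-Tshz2 (29.1 CPM), and the ranges of the last 2 overlapped. Both lay below the other subtypes in every library, except that the lowest DL-Pou3f1 library (58.4 CPM) was under the highest of DL-Foxp2 (61.3 CPM). *Gabra5* had another order, with DL-Etv1 at 77.8 and DL-Nnat at 71.1 CPM apart from SL-Cux2 at 49.0, DL-Tshz2 at 41.1 and SL-Myh7 at 21.9 CPM. DL-Foxp2, at a mean of 77.1 CPM (43.7 to 98.5), overlapped SL-Cux2 and DL-Tshz2. DL-Pou3f1 held 135 CPM of *Gabra2* and 94.5 CPM of *Gabra5* in 62 cells, too few in a library to be tested.

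**Figure D2:**
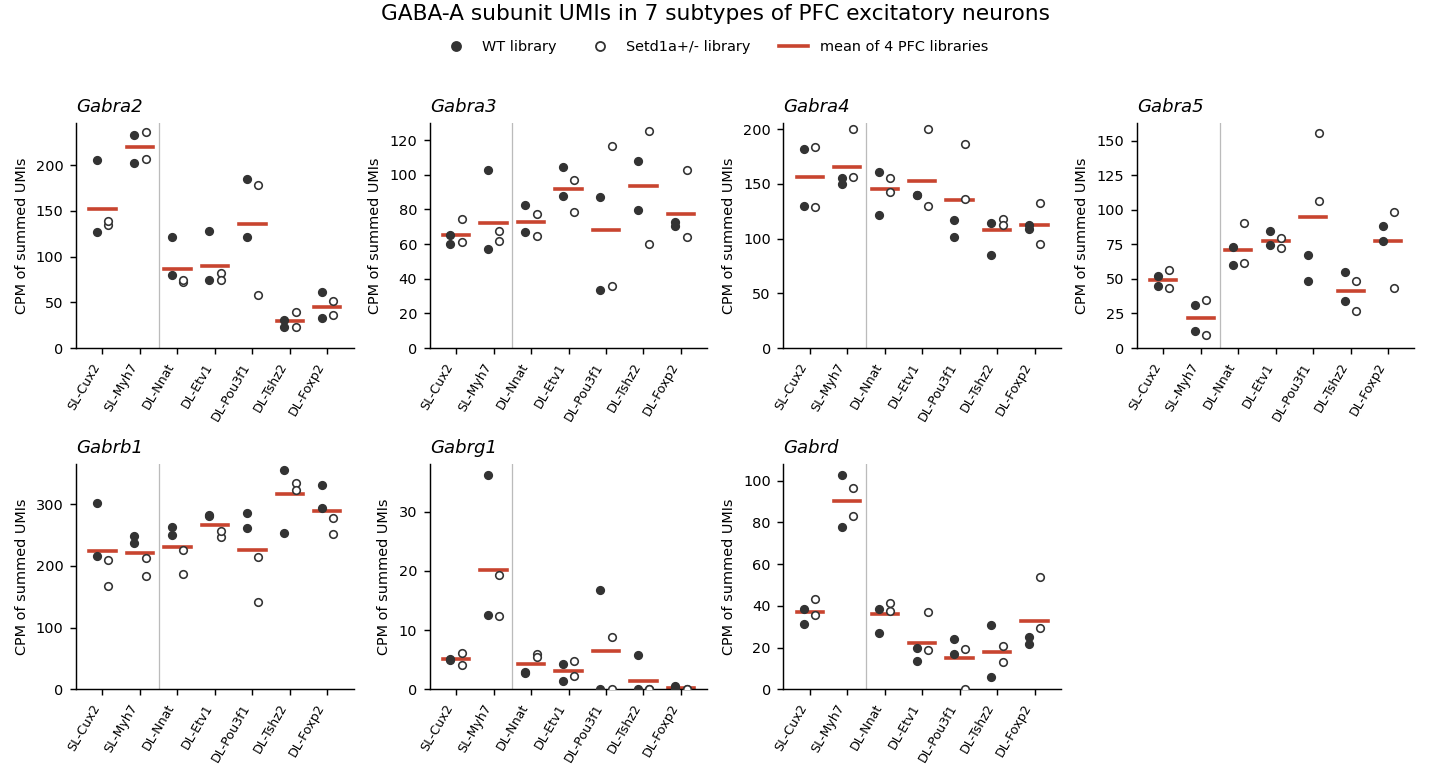
Level (CPM of summed UMIs) of each subunit gene in the 7 annotated excitatory subtypes of the PFC, with a point for each of the 4 libraries. *Gabra2* has its highest means in the superficial subtypes SL-Myh7 and SL-Cux2, *Gabra5* in the deep subtypes other than DL-Tshz2, and *Gabrd* in SL-Myh7. Many library ranges overlap between subtypes.

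The contrast was tested between DL-Foxp2 neurons, 743 cells, and SL-Cux2 neurons, 626 cells. *Gabra2* was 61.3, 32.5, 35.7 and 51.4 CPM in DL-Foxp2 and 206, 127, 135 and 138.5 CPM in SL-Cux2, with every SL-Cux2 library above every DL-Foxp2 library, a log2 difference of -1.79 ± 0.13 (adjusted p = 2.13e-13). *Gabra5* was 77.8, 88.6, 98.5 and 43.7 CPM in DL-Foxp2 and 51.8, 44.9, 56.2 and 43.3 CPM in SL-Cux2, higher by 0.76 ± 0.15 (adjusted p = 0.000118), with the second *Setd1a*+/- library of DL-Foxp2 at the SL-Cux2 level. The other 4 members tested were not called, although *Gabrb1* (0.41 ± 0.10) and *Gabra4* (-0.42 ± 0.11) passed the adjusted threshold below the fold, and 20.5% of all genes tested were called. DL-Etv1 neurons differed from SL-Cux2 the same way in *Gabra2* (-0.80 ± 0.11, adjusted p = 1.28e-07) and *Gabra5* (0.63 ± 0.14, adjusted p = 0.000477), and also had less *Gabrd* (-0.73 ± 0.20, adjusted p = 0.00505), with 10.8% of all genes called. The *Gabra5* and *Gabrd* calls of that pair were lost with DESeq2 (adjusted p = 0.0503 and 0.143), and that of *Gabrd* also without the library block (adjusted p = 0.207) and, by its fold, without the first WT library (-0.58).

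*Gabrd* stood out in SL-Myh7 neurons, with 77.6, 103, 83.2 and 96.6 CPM, apart from every value in the next subtype, SL-Cux2 (38.4, 31.4, 35.8 and 43.3 CPM). The same 194 cells held the highest mean of *Gabrg1* among the subtypes, at 20.1 CPM from 25 UMIs, whereas DL-Foxp2 held 0.131 CPM from 1 UMI. *Gabrb1*, from 220 to 317 CPM, *Gabra4*, from 108 to 165.5 CPM, and *Gabra3*, from 65.3 to 93.4 CPM, varied less in their subtype means, and neighbors in their orders overlapped.

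The tissue comparison used the 7 cell types that both tissues share, with 4 libraries of each tissue, both genotypes together and genotype as a covariate. Dissection and library preparation went with tissue, so these cannot be told apart from it. Of 22 tests of members, 11 were called, 8 higher and 3 lower in the striatum, beside 7.37% of all genes tested. The higher ones include 2 in microglia and 4 in endothelial cells. In the PFC alone no member passed the filter on low counts in these 2 types, so they passed through the striatal libraries. *Gabrg1* in interneurons did not pass it in the PFC alone either. The share of all genes also covers newly formed and mature oligodendrocytes, where no member was tested. The count is therefore no measure of enrichment.

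**Figure D3:**
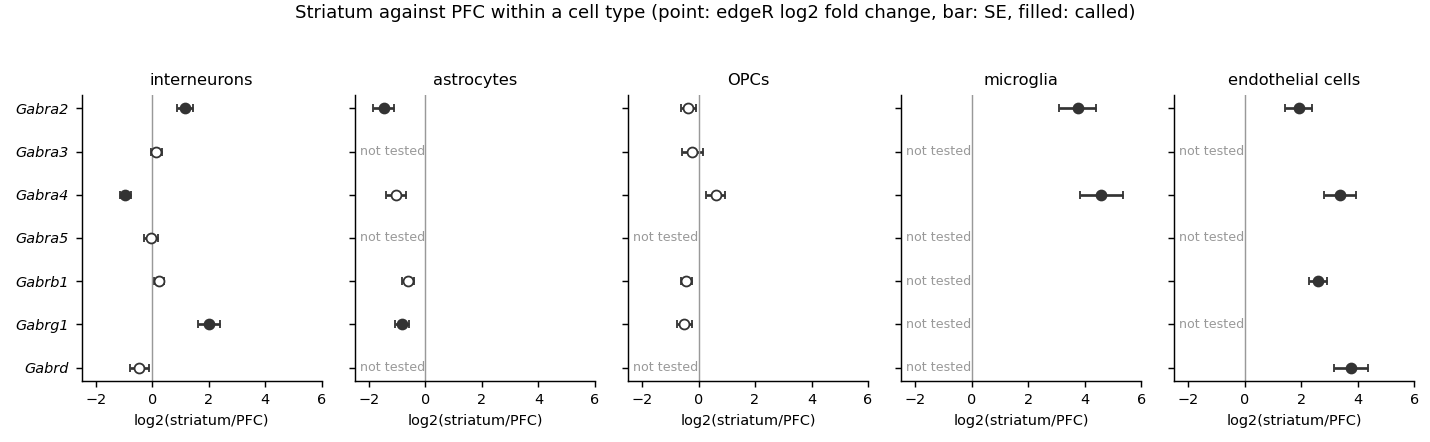
Log2 difference between striatum and PFC (right of 0, higher in striatum) with its SE for every member tested in a cell type that both tissues share. Filled points were called. *Gabra2* is higher in striatal interneurons, microglia and endothelial cells and lower in striatal astrocytes.

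*Gabra2* and *Gabrg1* were higher in striatal than in PFC interneurons and lower in striatal than in PFC astrocytes. In interneurons, where 12.2% of all genes were called, *Gabrg1* was 17.1, 5.98, 4.44 and 6.62 CPM in the PFC and 34.1, 25.5, 32.0 and 38.7 CPM in the striatum, where every value was higher, a log2 difference of 2.01 ± 0.39 (adjusted p = 0.00261). The PFC values of *Gabrg1* rest on 13 UMIs and the striatal values on 143. It passed the filter on low counts through the striatal libraries, so a call in the other direction was hardly possible. *Gabra2* was higher by 1.16 ± 0.28 (adjusted p = 0.0127), with the lowest striatal library just below the highest PFC library, and *Gabra4* was lower by 0.96 ± 0.19 (adjusted p = 0.00357), with every striatal value below every PFC value. *Gabra3* (0.15 ± 0.20), *Gabra5* (-0.05 ± 0.24), *Gabrb1* (0.24 ± 0.18) and *Gabrd* (-0.47 ± 0.34) did not pass. The classes within the interneuron label differed between the tissues at the same time, as the mean of *Vip* was 2722 CPM (1323 to 4478) in the PFC and 98.2 CPM (0 to 284) in the striatum, that of *Npy* 11460 and 3217 CPM, of *Th* 5.31 and 57.8 CPM and of *Chat* 0.555 and 10.6 CPM, each with ranges apart. The ranges of *Sst* (5600 to 8090 and 2040 to 5692 CPM) and *Pvalb* (0 to 189 and 32.0 to 98.1 CPM) overlapped. Their part in the subunit differences was not tested. All 6 MSN markers were detected in striatal interneurons (308 to 443 CPM summed, against 317 to 700.2 CPM in PFC interneurons), at 5.52 to 7.82% of their summed level in MSNs, and *Gabrg1* stood there at 132 to 195% and *Gabra2* at 43.9 to 59.8% of the MSN level. The part of MSN RNA in the interneuron values was not tested.

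Astrocytes had less of both in the striatum. *Gabra2* was 46.4, 38.7, 16.9 and 95.6 CPM against 96.5, 73.3, 111 and 125 CPM in the PFC (-1.47 ± 0.37, adjusted p = 0.0149), with 12.5% of all genes called. The library at 95.6 CPM is that with 31 astrocytes, and it alone reached the PFC range. The 6 MSN markers in the same 4 striatal samples of astrocytes summed to 5.85, 10.7, 2.86 and 16.2% of their MSN level, highest and lowest in the libraries where *Gabra2* was highest and lowest, and their part in it was not tested. *Gabrg1* was lower by 0.84 ± 0.25 (log2, adjusted p = 0.0331). *Gabrb1* (-0.62 ± 0.21, adjusted p = 0.0597) and *Gabra4* (-1.05 ± 0.36, adjusted p = 0.0703) did not pass, and *Gabrb1* was called once the replicate number was a block (adjusted p = 0.0394). The *Gabra2* call was lost without the second *Setd1a*+/- PFC library (-1.28, adjusted p = 0.0714) and without the first *Setd1a*+/- striatal library (-0.90, adjusted p = 0.0841). The *Gabrg1* call was lost with library size scaling (-0.74, adjusted p = 0.0531) and in 5 of the 8 leave-one-out fits, where the adjusted p reached 0.181.

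In microglia and endothelial cells, the members called were higher in the striatum, and MSN markers were higher there too. *Gabra2* in microglia was 84.0, 94.5, 80.3 and 194 CPM against 0, 16.2, 20.3 and 4.88 CPM in the PFC, and *Gabra4* 46.2, 85.9, 49.1 and 105 CPM against 0, 5.41, 0 and 4.88 CPM (log2 differences 3.75 ± 0.64 and 4.58 ± 0.77, adjusted p = 0.00251 and 0.00232, with 22.4% of all genes called). Without the first WT PFC library these were 2.86 and 3.67, and without the second WT PFC library the *Gabra2* value was 4.43. PFC microglia held only 6 UMIs of *Gabra2* and 2 of *Gabra4* in all. All 6 MSN markers were detected in striatal microglia and summed to 1388 to 1987 CPM, against 4.88 to 21.6 CPM in PFC microglia. The striatal sums were 23.2 to 40.3% of the level in MSNs, with *Gabra2* at 41.9 to 81.9%, *Gabra4* at 29.9 to 69.4% and *Gabrd* at 20.7 to 49.3% of theirs. In endothelial cells *Gabrd* (3.76 ± 0.61), *Gabra4* (3.36 ± 0.56), *Gabrb1* (2.59 ± 0.33) and *Gabra2* (1.90 ± 0.49) were called (adjusted p = 0.00302, 0.00375, 0.00089 and 0.0350, with 6.88% of all genes called), at striatal levels of 10.5 to 25.5 CPM for *Gabrd* and 12.7 to 45.5 CPM for *Gabra2*. The PFC side rests on 5 UMIs of *Gabrd*, 7 of *Gabra4*, 17 of *Gabrb1* and 28 of *Gabra2*. The MSN markers in striatal endothelial cells summed to 227 to 657 CPM, against 25.5 to 27.8 CPM in the PFC. The striatal sums were 3.80 to 13.3% of the MSN level, beside 7.50 to 17.6% for *Gabrd*, 4.37 to 13.5% for *Gabra4*, 6.61 to 19.2% for *Gabra2* and 16.4 to 31.3% for *Gabrb1*. The part of MSN RNA in these differences was not tested. The endothelial *Gabra4* value was 4.25 without the first *Setd1a*+/- PFC library. The *Gabra2* call in endothelial cells was lost without that library (1.56, adjusted p = 0.118), without the first WT PFC library (2.46, adjusted p = 0.0658) and without the second WT striatal library (1.90, adjusted p = 0.109). In OPCs, where 0.26% of all genes were called, none of the 5 members tested was called by edgeR or DESeq2 (1 at an unadjusted p under 0.05), and in newly formed and mature oligodendrocytes, where 0.0604% and 2.89% of all genes were called, no member passed the filter on low counts.

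For the genotype comparison, *Setd1a*+/- minus WT, no member was called in any cell type. The threshold was an adjusted p under 0.05 with a fold over 1.5 in the PFC and over 2 in the striatum. With edgeR, 0 of 21 tests in PFC cell types, 0 of 35 in 6 excitatory subtypes and 0 of 41 in striatal cell types were called, and DESeq2 called 0 in each as well, beside 0%, 0% and 0.00544% of all genes tested. At an unadjusted p under 0.05 stood 0, 0 and 4 of these tests, beside 1.7%, 1.6% and 2.62% of all genes. With the replicate number as a block these were 1, 2 and 6, beside 4.7%, 4.33% and 5.19% of all genes, and still none was called. With 2 libraries against 2, a difference that was not called is not shown to be absent. The SEs below give the precision of fits that leave out the pairing of replicates, except where the block is named. The median log2 difference of the members tested was 0.01 in PFC excitatory neurons, 0.03 in D1 MSNs, -0.01 in D2 MSNs and 0.11 in striatal interneurons, where all 7 were tested, beside medians of all genes from 0.001 to 0.009 in these 4 types. Where fewer members passed the filter it was -0.25 in PFC interneurons (6 members), 0.22 in PFC astrocytes (4), -0.08 in PFC OPCs (4), -0.42 in striatal astrocytes (5), 0.32 in striatal OPCs (5), -0.16 in striatal microglia (4), -0.19 in striatal endothelial cells (4) and -0.54 in striatal oligodendrocytes (2), and -0.08 to 0.07 over the 6 excitatory subtypes (5 or 6), beside medians of all genes between -0.0341 and 0.0112.

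**Figure D4:**
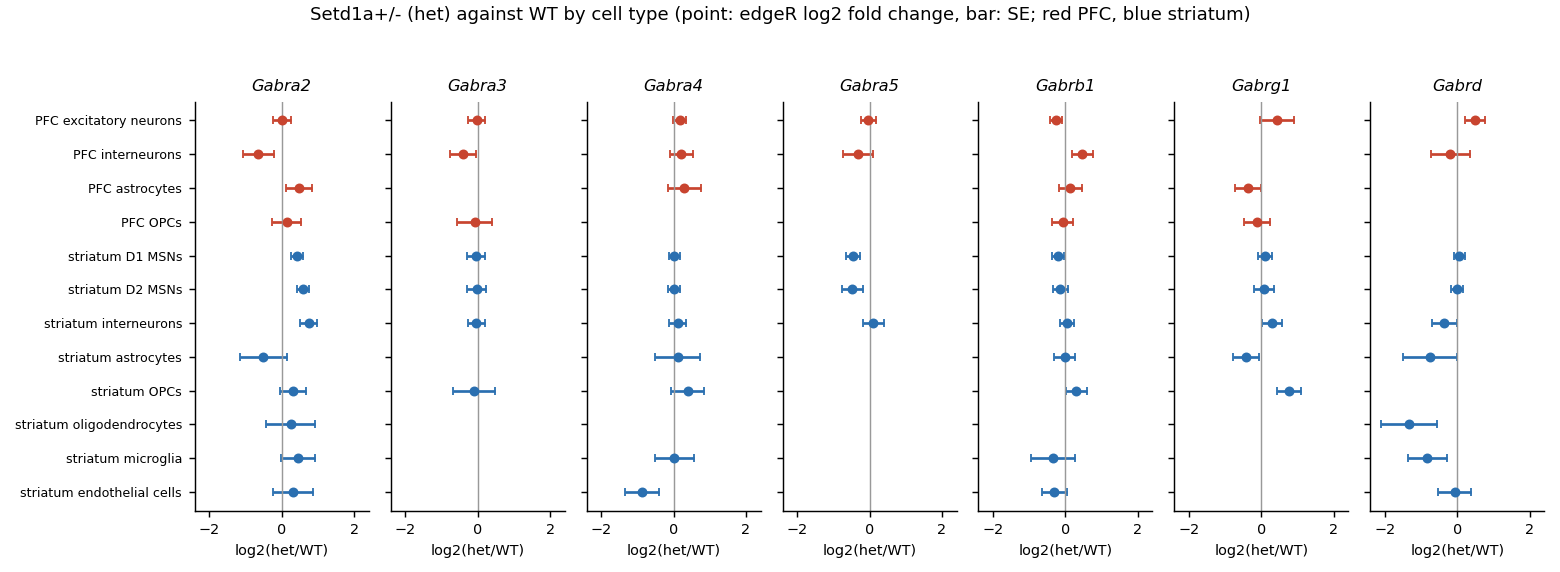
Log2 difference between *Setd1a*+/- (het) and WT (right of 0, higher in *Setd1a*+/-) with its SE for each member in every PFC (red) and striatal (blue) cell type where it was tested. No member was called, and *Gabra2* in striatal D1 MSNs, D2 MSNs and interneurons lies right of 0 by more than its SE.

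The 4 tests at an unadjusted p under 0.05 were *Gabra2* in the 3 striatal neuron types and *Gabrg1* in striatal OPCs. *Gabra2* in D2 MSNs stood at 162 and 141 CPM for WT against 202 and 239 CPM for *Setd1a*+/-, a log2 difference of 0.59 ± 0.17 (adjusted p = 1.00, where 2.5% of all genes had an unadjusted p under 0.05 and 0.0397% were called). In D1 MSNs it was 177 and 149 against 185 and 236 CPM, a difference of 0.42 ± 0.18 (adjusted p = 1.00, with 2.07% of all genes under 0.05 unadjusted). In striatal interneurons it was 93.9 and 64.2 against 115 and 141 CPM (0.75 ± 0.23, adjusted p = 1.00, with 3.03% under 0.05). In all 3 types both *Setd1a*+/- libraries lay above both WT libraries, but the 3 types share the same 4 libraries and are not independent. With the replicate number as a block the D2 value passed the adjusted threshold (0.59 ± 0.14, adjusted p = 0.0153) and stayed under the fold of 2 set for the striatum. D1 MSNs (0.42 ± 0.13, adjusted p = 0.203) and interneurons (0.76 ± 0.21, adjusted p = 0.359) did not pass. Leaving out each library in turn moved the D1 value between 0.20 and 0.61, the D2 value between 0.43 and 0.73 and the interneuron value between 0.50 and 1.04.

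**Figure D5:**
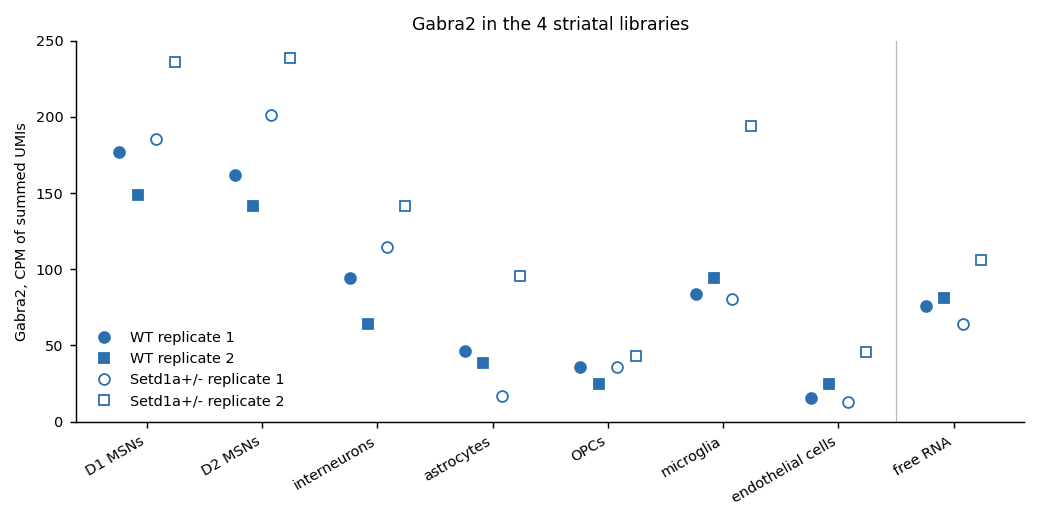
*Gabra2* level (CPM of summed UMIs) in each of the 4 striatal libraries by cell type, with the free RNA of barcodes of 1 to 50 UMIs. The *Setd1a*+/- points lie above the WT points in D1 MSNs, D2 MSNs and interneurons, and *Setd1a*+/- replicate 2 is the highest library in these, in microglia, endothelial cells and astrocytes and in free RNA.

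The second *Setd1a*+/- striatal library was the highest in *Gabra2* in several groups beyond MSNs and interneurons. It was not the highest in newly formed oligodendrocytes or neuroblasts, which held 10 and 18 *Gabra2* UMIs over the 4 libraries. It held 95.6 CPM in astrocytes against 16.9 to 46.4 CPM in the other 3 libraries, 43.2 CPM in OPCs against 24.8 to 35.99, 194 CPM in microglia against 80.3 to 94.5, 45.5 CPM in endothelial cells against 12.7 to 24.3 and 106 CPM in free RNA against 64.0 to 80.8. Without this library the *Gabra2* difference was 0.20 ± 0.16 in D1 MSNs, 0.43 ± 0.18 in D2 MSNs and 0.57 ± 0.25 in interneurons. After thinning to 1000 UMIs, the share of D1 MSNs with a *Gabra2* UMI was 16.0 and 12.0% in WT and 16.6 and 21.2% in *Setd1a*+/-, and of D2 MSNs 15.7 and 14.1% against 20 and 20.6%. *Gabrg1* in striatal OPCs stood at 29.2 and 26.3 CPM for WT against 43.7 and 55.5 CPM for *Setd1a*+/- (0.75 ± 0.33, adjusted p = 0.999, with 2.32% of all genes under 0.05 unadjusted), and in PFC OPCs 51.0 and 54.8 against 37.5 and 61.6 CPM, where the groups overlapped.

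*Gabra5*, which stood higher in most deep-layer subtypes, did not pass any threshold between genotypes in the PFC. Over excitatory neurons it stood at 68.9 and 63.4 CPM for WT against 74.2 and 54.5 CPM for *Setd1a*+/-, with a log2 difference of -0.03 ± 0.20 (adjusted p = 1.00), and in DL-Foxp2 neurons 77.8 and 88.6 against 98.5 and 43.7 CPM, with -0.16 ± 0.36 (adjusted p = 1.00). The WT values lay within the *Setd1a*+/- range in both. Without the second *Setd1a*+/- PFC library the sign turned, to 0.14 and 0.19, and without the first the DL-Foxp2 value was -0.92. That second library held 69 DL-Foxp2 cells with 17 *Gabra5* UMIs, against 121 to 351 cells and 80 to 169 UMIs in the others. In MSNs, *Gabra5* was 26.8 and 27.9 CPM in WT against 18.0 and 20.6 CPM in *Setd1a*+/- for D1, and 20.9 and 20.01 against 11.7 and 16.1 CPM for D2. These groups did not overlap. Neither had an unadjusted p under 0.05, and with the replicate number as a block D1 MSNs did (-0.45 ± 0.21, adjusted p = 0.723).

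The block brought *Gabrd* under an unadjusted p of 0.05 in 3 PFC groups. It was 30.7 and 27.4 CPM in WT against 32.1 and 48.5 CPM in *Setd1a*+/- excitatory neurons (0.47 ± 0.22, adjusted p = 0.992), 25.3 and 21.5 against 29.4 and 53.9 CPM in DL-Foxp2 (0.76 ± 0.34, adjusted p = 1.00) and 13.5 and 19.99 against 18.8 and 37.1 CPM in DL-Etv1 neurons (0.77 ± 0.37, adjusted p = 1.00). The genotypes overlapped in DL-Etv1 neurons, and in the other groups both *Setd1a*+/- values lay above both WT values. The second *Setd1a*+/- library was the highest in all 3 and in PFC free RNA, which held 29.5 and 36.7 against 25.6 and 58.7 CPM, and the part of free RNA was not tested. *Gabra4* in striatal endothelial cells was 19.3 and 22.4 against 7.16 and 20.03 CPM, groups that overlapped, and was under 0.05 with the block as well (-0.83 ± 0.39, adjusted p = 0.652).

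The rest of the pathway was read from lists of the 12 other GABA-A subunit genes, 17 genes of receptor clustering and trafficking and the chloride transporters *Slc12a2*, which brings chloride in, and *Slc12a5*, which exports it. None of these was called between genotypes, in 12, 26 and 24 tests of other subunits, 78, 84 and 115 tests of trafficking genes and 8, 9 and 17 tests of transporters in PFC types, PFC subtypes and striatal types. Between tissues, 3 of 10 tests of other subunits, 9 of 72 of trafficking genes and 3 of 10 of transporters were called, beside 7.37% of all genes over the 7 types and 2.89 to 22.4% in the types that held these calls. In interneurons, *Gabrg3*, which codes for γ3, was lower in the striatum by 0.97 ± 0.22 (log2), whereas *Hap1*, which takes part in receptor recycling, was higher by 1.502 ± 0.164 and *Iqsec3*, a partner of the scaffold protein gephyrin, by 0.93 ± 0.29. In astrocytes *Hap1* (2.78 ± 0.49) and *Gabarap* (0.73 ± 0.23) were higher. In striatal microglia *Hap1*, *Nsf* and *Slc12a5* and in striatal endothelial cells *Hap1*, *Nlgn2*, *Lhfpl4* and *Slc12a5* were higher, beside the MSN markers given above. *Slc12a2* was lower in striatal oligodendrocytes by 0.71 ± 0.16.

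Between cell types, 15 of 35 tests of other subunits, 44 of 136 of trafficking genes and 5 of 16 of transporters were called, beside 30% of all genes. Between PFC excitatory neurons and interneurons, 1 other subunit was higher and 1 lower, and 1 trafficking gene was higher and 1 lower, the lower being *Gabrg3* (-0.77 ± 0.18) and *Hap1* (-0.77 ± 0.15). *Slc12a5* was lower in DL-Foxp2 than in SL-Cux2 neurons (-0.92 ± 0.10), and *Gabrg3* was higher (0.62 ± 0.19). MSNs had less *Gabrq* (-4.47 ± 0.54) than striatal interneurons, and more gephyrin (*Gphn*, 0.83 ± 0.11). *Slc12a2* was lower in OPCs than in oligodendrocytes by 3.74 ± 0.12 in the PFC and by 3.02 ± 0.14 in the striatum, all on the log2 scale.

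Across the 18 cell types of both tissues, each member was set beside the 11304 genes that reached at least 20 CPM in 1 type, by Pearson's r of log2(CPM + 1) over the mean of 4 libraries per type. The types of a tissue share libraries and depth, and r is given as a description only. The genes most like *Gabra2* were *Actr3b* (r = 0.966), *Agfg2* (0.955) and *Dlg4* (0.939). *Gabra3* was followed by *B3galnt1* (0.969), *Rhof* (0.938) and *Disp2* (0.921), and *Gabra4* by *Ppp1r1a* (0.955), *Fbxl16* (0.940) and *Ngef* (0.937). For *Gabra5* they were *Slc6a7* (0.942), *Gm17018* (0.934) and *Gm34006* (0.932), for *Gabrb1* *Trim9* (0.972), *Tspan7* (0.964) and *Ppargc1a* (0.939), and for *Gabrd* *Rgs8* (0.969), *Gpr12* (0.967) and *Gprin3* (0.964). *Gabrg1* was the member with the least like neighbors, at 0.907 for *Pgm2*, 0.893 for *Coq9* and 0.873 for *Kcnk1*. Among the members themselves, the chromosome 5 neighbors *Gabra2* and *Gabra4* had an r of 0.923 and *Gabra2* and *Gabrb1* of 0.857, *Gabra4* and *Gabrd* from separate chromosomes had 0.801, and *Gabrg1* had 0.053 with *Gabrd* and -0.007 with *Gabra3*.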

How the data were processed

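Single cells of the PFC and striatum were captured with 10x Chromium, in 8 libraries of 2 pooled mice each. The authors made the UMI counts with Cell Ranger 3.0.2 on mm10 per the labels, and the deposited matrices hold raw counts for all droplet barcodes, not normalized. The authors kept cells with at least 800 genes and under 10% mitochondrial reads, integrated and clustered them in Seurat 3.2.0 and named the clusters, and that deposited annotation supplied library, cell type and excitatory subtype here. Whether doublets were removed is not given in the sources used here, and no doublet caller was run. Deposited expression tables, in which row numbers stand in place of gene names, were not used.

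UMIs were summed per library and cell type. Groups of under 10 cells in a library were not tested. The sums were tested with edgeR 4.0.16 in R 4.3.3 (TMM scaling, filterByExpr with a minimum count of 10, quasi-likelihood F test, Benjamini-Hochberg adjustment over all genes tested in a fit), after the code was tested on simulated counts. The methods describe a test on single cells, which was not run because cells of a library are not replicates. Alternatives were DESeq2 1.42.0, library size scaling, no filter, leaving out each library and the block, plus a tissue by genotype interaction chosen after seeing the data. Wilson intervals (95%) and floors of 3 counts cover counting error only. The p-values measure the spread between pools of mice, which for cell type pairs is that of the difference within a pool.

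The members and gene lists were chosen with earlier results of these data known. The genes named are the 7 members, list genes that were called (at most 4 per list and comparison, by smallest p), members with an unadjusted genotype p under 0.05, *Gabra5* in excitatory and DL-Foxp2 neurons, and the 3 genes most like each member. Some called list genes are not reported here. The methods state that each biological replicate comprised a WT and a mutant library, so replicate numbers pair the libraries. In that pairing the differences between replicates correlated across genes between genotypes at r = 0.472 over all PFC cells (0.114 to 0.599 over types) and 0.564 over all striatal cells (0.097 to 0.395). Gene coordinates are from GENCODE vM21 and promoters from RefSeq on GRCm38.p6.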

Additional observations from a re-analysis of the deposited data

Results flagged for a closer look

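The genotype difference of *Gabra2* in interneurons differed between the tissues by 1.38 ± 0.48 on the log2 scale (striatum minus PFC, edgeR interaction term, adjusted p = 1.00 over all genes). The values behind it were 65.7 and 47.8 CPM in WT against 26.6 and 46.3 CPM in *Setd1a*+/- libraries of the PFC, where both mutant values lay below both WT values, and 93.9 and 64.2 against 115 and 141 CPM in the striatum, where both lay above. The PFC values rest on 73 UMIs of *Gabra2* in 298 interneurons and the striatal values on 445 UMIs in 821. This was the 1 of 25 interaction tests of members with an unadjusted p under 0.05, it did not pass the correction, and the term was added after the data were seen. Groups of 2 libraries were too small to be searched for single outlying libraries.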

How the results depend on the processing

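The count of members called between tissues (11) rose to 17 with no filter on low counts, was 12 with the replicate number as a block and 9 to 13 when each library was left out. The count over cell type pairs (35) was 29 with DESeq2, 31 without the library block, 36 with library size scaling and 31 to 36 when each library was left out. The genotype counts were 0 under every alternative run, the replicate block included, and the block changed no call between genotypes. Direction turned in *Gabra5* without PFC *Setd1a*+/- replicate 2, to 0.14 in excitatory neurons and 0.19 in DL-Foxp2 neurons, and the cause was not tested. Over the leave-one-out fits these ran from -0.23 to 0.14 and from -0.92 to 0.19, and *Gabrg1* in striatal OPCs from 0.66 to 1.00. Of single members called, DESeq2 lost 6 of the pair calls and none of the tissue calls. Leaving out a library lost 10 tissue and 8 pair calls and kept 78 and 127, over the fits in which the member was tested. Some members of the pair calls did not pass the filter on low counts in every such fit and are not in these counts. Levels in the highest type moved by over 1 SD without mitochondrial and ribosomal genes in *Gabra4* and *Gabrd* in D2 MSNs (199.8 and 169.6 CPM), by the smaller total alone, as did 12 of 126 levels. Shares after thinning to 1000 UMIs were 16.1% for *Gabra2* in D1 MSNs, 7.53% for *Gabra3* and 7.14% for *Gabra5* in excitatory neurons, 15.4% for *Gabra4* and 15.6% for *Gabrd* in D2 MSNs, and 29.2% for *Gabrb1* and 13.9% for *Gabrg1* in PFC astrocytes. No member passed the filter on low counts for the genotype test in newly formed oligodendrocytes of either tissue or in mature oligodendrocytes, microglia and endothelial cells of the PFC.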

Other observations

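Mature oligodendrocytes held little of each member, with means between 0.212 CPM (*Gabra5*, striatum) and 10.9 CPM (*Gabrd*, striatum). Striatal neuroblasts held 14.1 CPM of *Gabra4*, 13.5 CPM of *Gabra2*, 13.4 CPM of *Gabrb1* and 14.7 CPM of *Gabrd*, and under 5 CPM of the other 3. None of the 7 passed the filter on low counts in neuroblasts, so their genotype values were not tested.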
